A study of Mus musculus with 12 samples.

Results

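The genes described here are 57 members of the synaptic vesicle cycle and its SNARE proteins, measured in NSC-34 cells that express different amounts of progranulin (PGRN). Members were chosen by name for their place in the cycle, with earlier results of these data known. Every array probe annotated to one of them was used. They had 123 probes, and 48 of the 57 members were tested among 11204 genes in all. A gene was tested if at least 4 of 12 arrays had a probe of it above background, and its brightest such probe was used. NSC-34 is a mouse hybrid line made by fusing neuroblastoma cells with embryonic spinal cord motor neurons. The knockdown cells (NSC-34/shPGRN) stably carry a short hairpin RNA against mouse progranulin and were selected with puromycin, and the overexpressing cells (NSC-34/hPGRN) stably express human progranulin and were selected with G418. Below, the modified lines are called shPGRN and hPGRN cells, as in their sample labels. Control cells carry a vector, and the sources used here do not say which of the vectors the arrays had. All 3 lines were plated in 10% serum, moved to 5% after 24 h and to 1% after a further 24 h, and total RNA was taken 24 h later and hybridized to Illumina mouse whole-genome BeadChips. Each line gave 4 arrays, from 4 flasks subcultured from the same stable cells, so p-values cover the variation among subcultures but not among independently made lines. Vector, drug and progranulin level change together between the lines and cannot be told apart.

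A nerve terminal releases transmitter when a SNARE protein on the vesicle zips up with SNARE proteins on the plasma membrane and pulls the membranes together. Complexins and synaptotagmins hold this reaction until calcium enters, priming factors and Rab3 proteins bring vesicles to the active zone, and NSF with its SNAP adaptors takes the spent SNARE bundles apart. The membrane is then recovered by clathrin, its adaptor AP-2, endophilins and dynamin. Related SNARE proteins serve endosomes, the Golgi apparatus and lysosomes in all cells.

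Grn, the gene for progranulin, checked the label of the knockdown line. Its intensities were 646, 635, 665 and 502 in shPGRN cells, 922, 1273, 1043 and 956 in hPGRN cells and 896, 899, 811 and 942 in control cells. Every shPGRN array lay below every array of the other lines, by limma log2 fold changes of -0.49 against control cells (SE 0.11, adjusted p = 0.00248) and -0.71 against hPGRN cells (SE 0.11, adjusted p = 6.37e-05). Between hPGRN and control cells the arrays overlapped and Grn was not called (0.22, SE 0.11, limma adjusted p = 0.251). The label of hPGRN cells was thus not checked by this probe. Whether the probe also detects the human progranulin RNA of hPGRN cells was not tested. The study itself reports that RT-PCR found human progranulin in the overexpressing cells alone, and that Western blots also checked the levels. Arrays were alike in depth, with 19179 to 19561 probes above background each. Of 18 motor neuron and neuronal markers 16 had a probe, and 10 or 11 of these were above background on all 4 arrays of a line. Their summed intensity was 19240 to 21120 in shPGRN cells, 22300 to 23800 in hPGRN cells and 19270 to 21660 in control cells. By the brightest probe of each marker, Nefl, the light neurofilament chain, was above background in no line. Slc18a3, Slc5a7, Mnx1 and Tubb3 were also above it on no shPGRN array. Mnx1 was above it on no hPGRN array, and Chat and Slc5a7 on no control array. Summed over their lists, fibroblast markers reached at most 347, astrocyte and oligodendrocyte markers 113 and macrophage markers 89.5.

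The largest count of called members was lower in shPGRN cells than in hPGRN cells. Against hPGRN cells, 11 of 48 members were lower (22.9%) beside 7.16% of all genes tested, and 4 were higher (8.33%) beside 6.84%. The lower members were Stx1a, Stx3, Cplx1, Syt7, Syn2, Sncb, Rab3d, Rims2, Unc13a, Sh3gl2 and Ap2m1, and the higher ones were Vamp1, Syt4, Sypl and Sv2c. The median log2 fold change of the 48 members was -0.12, beside 0.0025 over all genes tested. A gene was called where limma gave a Benjamini-Hochberg adjusted p under 0.05 over all genes tested. The study itself points to synaptic vesicle and SNARE genes from these same arrays. The members were also chosen with earlier results of these data known. These counts are therefore not independent evidence of a direction.

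Against control cells the members were divided more evenly. shPGRN cells had 5 members lower (10.4%, beside 6.91% of all genes) and 4 higher (8.33%, beside 7.38%), with a median of -0.05 beside -0.00062 over all genes. Stx1a, Cplx1, Rab3a, Unc13b and Sh3gl2 were lower, and Stx4a, Syt1, Sypl and Sh3gl1 were higher. hPGRN cells had 3 members lower (6.25%, beside 3.25%) and 4 higher (8.33%, beside 3.75%), with a median of 0.07 beside -0.002 over all genes. Here Vamp1, Napb and Sh3gl2 were lower, and Vamp3, Syt1, Syt7 and Syn2 were higher. In all, 22 members were called in at least 1 comparison and 26 in none. The comparisons share arrays, so their counts do not stand independently of each other.

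Most differences were small. A fold of at least 1.5 in addition to the adjusted p left Sh3gl2 lower in shPGRN than in control cells, Syt1 higher in hPGRN than in control cells, and no member between shPGRN and hPGRN cells. The count of 11 became 6 without shPGRN replicate 1 or hPGRN replicate 2, 7 without shPGRN replicate 4 or hPGRN replicates 3 or 4, and 13 without control replicate 4. The 4 members higher than control cells in shPGRN cells became 2 without control replicate 2. Neuronal markers also differed between the lines. Of 11 tested, 6 were lower and 1 was higher in shPGRN than in control cells. Against hPGRN cells 6 were lower and 0 higher in shPGRN cells, and 1 was lower and 1 higher in hPGRN than in control cells. Gap43, Elavl3, Lhx1, Phox2a and Slc18a3 were lower in shPGRN cells than in both other lines. Isl1 went the other way against control cells, being higher in both modified lines, and was lower in shPGRN than in hPGRN cells. Elavl4 was lower in both modified lines than in control cells. The shares over all genes tested are those given above. Markers of other cells moved as well. The summed intensity of the Schwann cell list, 3 of whose 5 genes had a probe, was 635 to 760 in shPGRN cells, 735 to 892 in hPGRN cells and 325 to 529 in control cells. Its 1 tested gene, Pmp22, was higher than in control cells in shPGRN cells (0.66, limma adjusted p = 0.000328) and in hPGRN cells (0.89, adjusted p = 2.28e-05), while the defining marker Sox10 was above background on no array. Of 3 fibroblast markers tested, Thy1, which neurons also express, was lower than in control cells in shPGRN cells (-0.39, adjusted p = 0.0102) and in hPGRN cells (-0.44, adjusted p = 0.00962). The part of these markers in the results was not tested, and in bulk RNA a smaller share of neuron-like cells and less RNA per cell cannot be told apart.

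**Figure D1:**
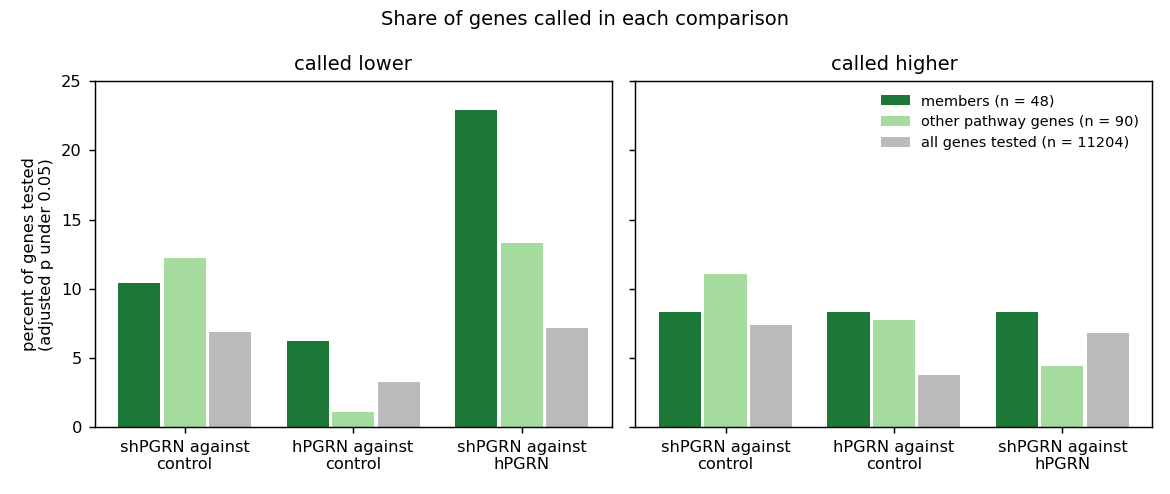
Share of genes called lower (left) and higher (right) in each comparison, in percent of the genes tested, for the 48 members, 90 other genes of the pathway and all 11204 genes tested. The tallest bar is the 22.9% of members lower in shPGRN than in hPGRN cells, beside 7.16% of all genes.

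Stx1a, Cplx1 and Sh3gl2 were lower in shPGRN cells than in both other lines. Stx1a encodes syntaxin 1A, the plasma membrane SNARE of nerve terminals, and Cplx1 encodes complexin 1, which binds the assembled SNARE bundle and clamps it. Sh3gl2 encodes endophilin A1, a membrane-bending protein that brings dynamin and synaptojanin to budding vesicles. Their promoters are shown because these members were all called lower in shPGRN cells than in both other lines. Between hPGRN and control cells only Sh3gl2 of these was called. Each window holds 300 bases around the annotated RefSeq start (GRCm38.p6), 5′ to 3′ on the strand of the gene. Capitals mark the GC box GGGCGG, bound by Sp1-like factors, the cyclic AMP response element TGACGTCA and its half-site TGACG, on either strand. The Stx1a window lies at chr5:135023232-135023531 on the plus strand, that of Cplx1 at chr5:108549978-108550277 on the minus strand and that of Sh3gl2 at chr4:85205206-85205505 on the plus strand.
Stx1a: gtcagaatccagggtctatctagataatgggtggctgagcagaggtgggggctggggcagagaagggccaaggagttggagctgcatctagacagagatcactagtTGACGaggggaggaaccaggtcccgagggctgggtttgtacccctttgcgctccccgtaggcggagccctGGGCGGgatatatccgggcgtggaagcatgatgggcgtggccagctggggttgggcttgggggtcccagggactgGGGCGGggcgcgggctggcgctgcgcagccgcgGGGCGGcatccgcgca
Cplx1: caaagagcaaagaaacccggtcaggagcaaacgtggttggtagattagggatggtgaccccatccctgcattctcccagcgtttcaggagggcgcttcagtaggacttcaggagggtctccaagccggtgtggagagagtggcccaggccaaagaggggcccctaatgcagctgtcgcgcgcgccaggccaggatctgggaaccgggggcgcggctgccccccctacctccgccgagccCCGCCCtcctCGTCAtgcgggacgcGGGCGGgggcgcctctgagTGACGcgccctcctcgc
Sh3gl2: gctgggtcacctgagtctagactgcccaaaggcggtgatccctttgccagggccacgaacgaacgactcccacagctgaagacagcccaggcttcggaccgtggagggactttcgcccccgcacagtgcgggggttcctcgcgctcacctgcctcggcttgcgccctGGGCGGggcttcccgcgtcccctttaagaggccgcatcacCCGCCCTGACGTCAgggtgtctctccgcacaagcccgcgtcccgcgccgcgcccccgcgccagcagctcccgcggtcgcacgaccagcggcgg
All are rich in G and C, at 66.3% for Stx1a, 67% for Cplx1 and 70.7% for Sh3gl2. Stx1a held 3 GC boxes and 1 half-site, Cplx1 held 2 of each, and Sh3gl2 held 2 GC boxes, 1 of them directly before a full response element, whose letters contain the half-site on both strands. Among 32851 mouse promoter windows of the same length, 35.7% held a GC box, 20.8% a half-site and 1.79% the full element. Among 59 windows of 47 members, 39 held a GC box, 21 a half-site and 5 the full element. No window of the 3 genes held the E-box CACGTG, the CCAAT box or either of the searched motifs TTCAGCACC and GGACAGC of RE1, the element bound by the neuronal gene repressor REST. A match of letters describes the window and does not show that a factor binds.

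Stx1a (probe ILMN_2700608) had intensities of 957, 945, 920 and 835 in shPGRN cells, 1478, 1340, 1345 and 1313 in hPGRN cells and 1311, 1433, 1304 and 1500 in control cells. The 4 shPGRN arrays lay below all 8 others, and the other lines overlapped. The mean was 914 ± 55.1 (SD, n = 4 arrays) in shPGRN cells and 1387 ± 95.6 in control cells, a limma log2 fold change of -0.56 (SE 0.09, adjusted p = 8.64e-05). Against hPGRN cells, at 1369 ± 73.8, it was -0.55 (SE 0.09, adjusted p = 0.00013). Between hPGRN and control cells it was -0.02 (adjusted p = 0.946).

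Cplx1 was also lowest in shPGRN cells. Its intensities (probe ILMN_1226042) were 1265, 1298, 1240 and 1300 in shPGRN cells, 1912, 1711, 1936 and 1867 in hPGRN cells and 1782, 1557, 1779 and 2002 in control cells. shPGRN arrays again lay below all others, and those of the other lines overlapped. The log2 fold change was -0.45 against control cells (SE 0.09, limma adjusted p = 0.00118) and -0.52 against hPGRN cells (SE 0.09, limma adjusted p = 0.000331). The related Cplx2 was near background, at means of 21.7 to 29.3, and was not called.

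Sh3gl2 differed between each pair of lines. Intensities (probe ILMN_1251416) were 175, 195, 172 and 181 in shPGRN cells, 223, 249, 244 and 236 in hPGRN cells and 301, 345, 362 and 349 in control cells, so no pair of lines overlapped. It was lower than control cells by a limma log2 fold change of -0.70 in shPGRN cells (SE 0.09, adjusted p = 4.54e-06) and -0.41 in hPGRN cells (SE 0.09, adjusted p = 0.00459). shPGRN cells lay below hPGRN cells by -0.29 (SE 0.09, adjusted p = 0.0223), a call lost without shPGRN replicates 1 or 3 or hPGRN replicates 2, 3 or 4, with adjusted p of 0.0506 to 0.0665. The 2 other kept probes of Sh3gl2 were dim, with means of 13.5 to 40.1. They gave log2 fold changes of -0.18 and -0.14 between shPGRN and control cells and were not called, and the mean over probes lost the calls of hPGRN against control cells (adjusted p = 0.17) and of shPGRN against hPGRN cells (adjusted p = 0.211).

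**Figure D2:**
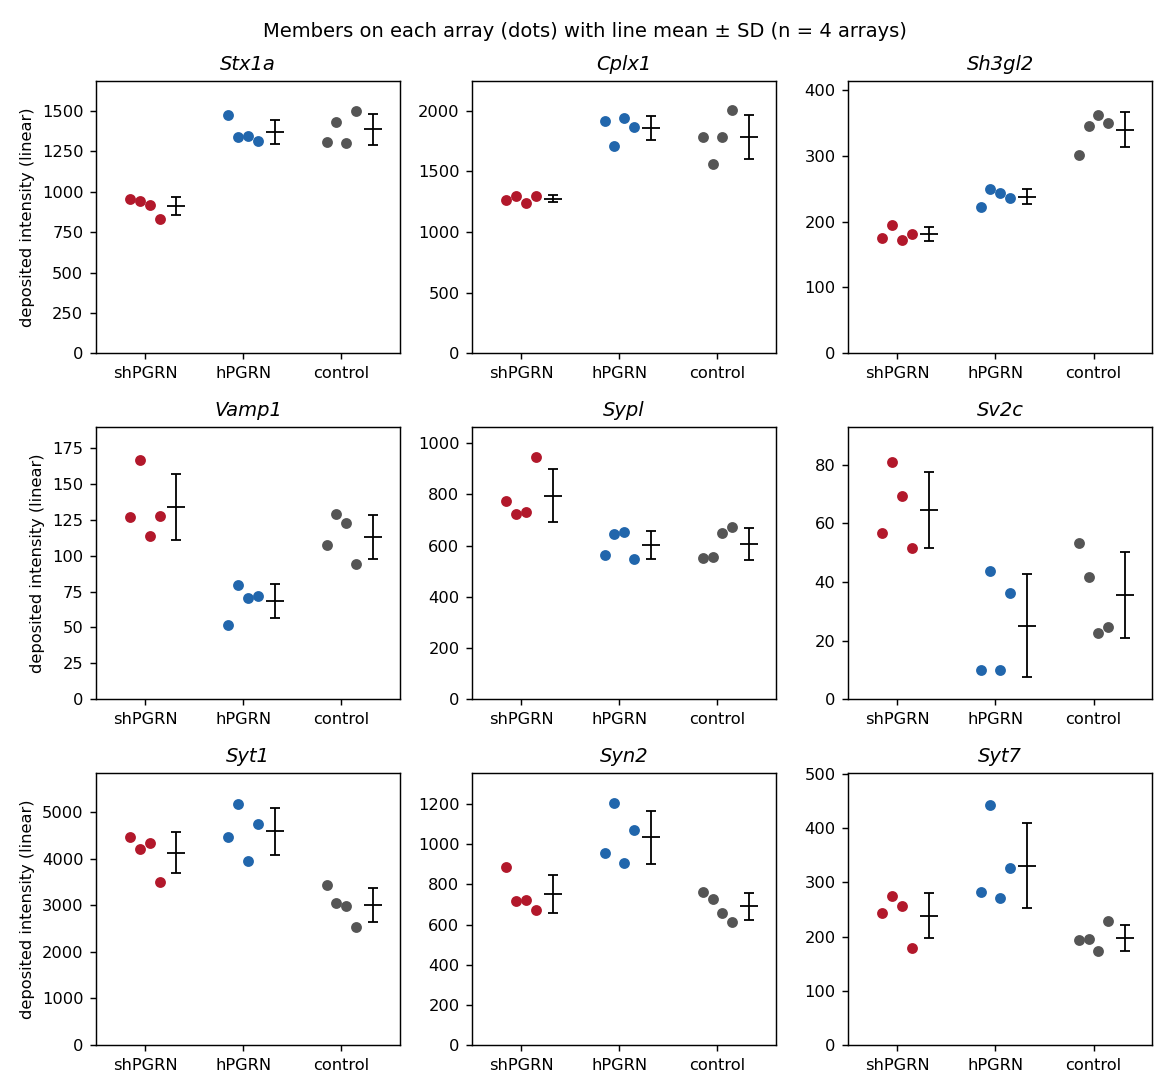
Deposited linear intensity on each array (dots) for 9 members, by line, with the mean and SD of 4 arrays beside the dots. Stx1a, Cplx1 and Sh3gl2 (top) lay lowest in shPGRN cells, Vamp1 and Sv2c had their lowest mean in hPGRN cells, Sypl was highest in shPGRN cells, and Syt1, Syn2 and Syt7 (bottom) had their highest mean in hPGRN cells.

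The vesicle partners of syntaxin 1A are the synaptobrevins Vamp1 and Vamp2. Vamp1 intensities were 127, 167, 114 and 128 in shPGRN cells, 51.7, 79.6, 70.9 and 72.2 in hPGRN cells and 107, 129, 123 and 94.3 in control cells. The hPGRN arrays lay below all others. The limma log2 fold change was -0.40 for hPGRN against control cells (SE 0.10, adjusted p = 0.0153) and 0.55 for shPGRN against hPGRN cells (SE 0.10, adjusted p = 0.000518), while shPGRN and control cells overlapped (0.15, adjusted p = 0.363). The call against control cells was lost without hPGRN replicate 1 (adjusted p = 0.0618) or control replicate 3 (adjusted p = 0.0533).

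Vamp2 did not pass the threshold in any comparison. Its intensities were 372, 342, 334 and 341 in shPGRN cells, 463, 408, 377 and 444 in hPGRN cells and 359, 427, 404 and 407 in control cells. The shPGRN arrays lay below those of hPGRN cells, with a limma log2 fold change of -0.24 (SE 0.09, adjusted p = 0.0788), and overlapped those of control cells (-0.17, adjusted p = 0.229). The first difference was called in 3 of 22 alternatives, with array weights (adjusted p = 0.0463), with the mean of kept probes (0.0489) and with genes above background on all 12 arrays alone (0.049).

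Snap25, the other plasma membrane SNARE of the terminal, could not be tested. The brighter of its 2 probes read -6.30, 14.2, -5.61 and 24.6 in shPGRN cells, 7.85, 1.08, 4.83 and -2.75 in hPGRN cells and -8.30, 11.2, 4.91 and 2.99 in control cells. It was above the background limit, which lay between 12.2 and 12.9, on 2 of 12 arrays, and the second probe was above it on 0. Values below 0 arise because the deposited intensities had background subtracted. The other members not tested, Doc2b, Rab3b, Rab3c, Rims1, Rph3a, Dnm2, Amph and Synj1, each had a probe above the limit on 1 to 3 arrays, except Rab3b with none.

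Of 10 other SNARE proteins, 1 or none was called in each direction and comparison (at most 10%, beside 3.25% to 7.38% of all genes). Stx4a, the syntaxin of constitutive plasma membrane fusion, was at 325 to 366 in shPGRN cells and 203 to 319 in control cells (log2 fold change 0.40 ± 0.11 SE, limma adjusted p = 0.0178). This call was lost without shPGRN replicate 3 (adjusted p = 0.0505), control replicate 2 (0.0667) or control replicate 3 (0.0505). It was also lost with deposited values floored at the lowest positive value in place of normexp (adjusted p = 0.0719) and with the mean of kept probes (0.22, adjusted p = 0.154), and its second probe gave 0.04. Vamp3, a synaptobrevin of recycling endosomes, was at 1799 to 2369 in hPGRN cells and 1514 to 1643 in control cells (log2 fold change 0.34 ± 0.10 SE, limma adjusted p = 0.0342). The Vamp3 call was lost in 9 of 22 alternatives. Leaving out hPGRN replicates 2 or 4 or control replicates 1, 2 or 3 gave adjusted p of 0.0672 to 0.155, and floored values gave 0.0732. A normexp offset of 16 gave 0.0718, no filter on dim probes 0.0608 and the replicate number as a block 0.0585.

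Stx3, a syntaxin of ribbon synapses and epithelia, was dim, at 20.02 to 34.2 in shPGRN cells and 43.2 to 85.1 in hPGRN cells (log2 fold change -0.41 ± 0.11 SE, limma adjusted p = 0.0104). The call was lost without hPGRN replicate 3 (adjusted p = 0.0508). Its 2 other kept probes were above background on 4 of 4 hPGRN arrays but on 0 and 1 of 4 shPGRN arrays, so no fold is given for them. Stx2, Stx6, Stx7, Snap23, Snap29, Vamp4 and Vamp7 were not called, with log2 fold changes between -0.23 and 0.23. Stx7, the syntaxin of late endosomes, was at 1860 to 2200 over all arrays.

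Among the genes that take SNARE bundles apart, only Napb was called, in hPGRN against control cells, where 3.25% of all genes were lower. Nsf, the ATPase that separates them, was at means of 1127 to 1266 and was not called, nor was its adaptor Napa. Napb, the adaptor enriched in brain, was at 63.0 to 78.9 in hPGRN cells and 95.2 to 117 in control cells (log2 fold change -0.34 ± 0.09 SE, limma adjusted p = 0.0202). This call was lost without hPGRN replicates 2, 3 or 4 or control replicates 1 or 2, with adjusted p of 0.051 to 0.0611.

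Among the calcium sensors, Syt1 was higher in both modified lines than in control cells. Synaptotagmin 1 triggers fast transmitter release. Intensities were 4474, 4209, 4342 and 3498 in shPGRN cells, 4463, 5186, 3959 and 4740 in hPGRN cells and 3438, 3055, 2991 and 2539 in control cells, and all 8 arrays of the modified lines lay above the 4 of control cells. The limma log2 fold change against control cells was 0.45 in shPGRN cells (SE 0.11, adjusted p = 0.00612) and 0.60 in hPGRN cells (SE 0.11, adjusted p = 0.00122). The modified lines overlapped each other (-0.15, adjusted p = 0.422). A second Syt1 probe, at means of 593 to 881, gave 0.25 (limma adjusted p = 0.124) and 0.53 (adjusted p = 0.0027) against control cells. The third kept probe, at means of 96.1 to 120, overlapped between all lines and gave 0.20 (adjusted p = 0.217) and 0.08 (adjusted p = 0.748).

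Syt7, a slower sensor of high calcium affinity, was higher in hPGRN cells. It read 243, 274, 257 and 180 in shPGRN cells, 282, 443, 272 and 327 in hPGRN cells and 193, 195, 172 and 229 in control cells. The hPGRN arrays lay above those of control cells (log2 fold change 0.56 ± 0.12 SE, limma adjusted p = 0.00555) and overlapped shPGRN arrays (-0.37, SE 0.12, adjusted p = 0.0463). The call against control cells was lost with floored values (0.72, adjusted p = 0.0528) and with the mean of kept probes (0.24, adjusted p = 0.0765). The second call held in 9 of 22 alternatives and was lost without any of shPGRN replicates 1, 3 and 4, hPGRN replicates 2 and 4 or control replicates 1 and 2, with adjusted p of 0.0532 to 0.198.

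Syt4, a synaptotagmin with little calcium binding of its own, went the opposite way. It was at 1702 to 1932 in shPGRN cells, 1411 to 1511 in hPGRN cells and 1531 to 1617 in control cells, so that no lines overlapped. Only the difference between the modified lines was called (log2 fold change 0.32 ± 0.08 SE, limma adjusted p = 0.0107). Syt5 and Syt11 were not called, with log2 fold changes between -0.31 and 0.10.

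Of 8 vesicle proteins, 2 were lower (25%, beside 7.16% of all genes) and 2 higher (25%, beside 6.84%) in shPGRN than in hPGRN cells. Each modified line had 1 vesicle protein above control cells (12.5%), namely Sypl in shPGRN cells and Syn2 in hPGRN cells. The matching shares of all genes were 7.38% and 3.75%. No vesicle protein was called lower in a modified line than in control cells. Syn2 encodes a synapsin, which holds vesicles in reserve. It read 889, 717, 723 and 673 in shPGRN cells, 955, 1205, 909 and 1072 in hPGRN cells and 763, 728, 660 and 614 in control cells. The hPGRN arrays lay above all others, by a limma log2 fold change of 0.53 against control cells (SE 0.10, adjusted p = 0.00277), and shPGRN cells lay -0.43 below them (SE 0.10, adjusted p = 0.00724). That last call was lost with the mean of kept probes (-0.26, adjusted p = 0.0504).

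Syn1, another synapsin, depended on the probe. Its brightest probe gave -0.30 for shPGRN against hPGRN cells and was not called (limma adjusted p = 0.0697). Its second probe read 67.5, 32.6, 59.3 and 41.3 in shPGRN cells, 127, 147, 98.4 and 126 in hPGRN cells and 93.7, 114, 95.4 and 102 in control cells. With every probe fitted by itself, the second probe was lower in shPGRN cells by -0.69 (adjusted p = 9.15e-05) against hPGRN cells and by -0.51 (adjusted p = 0.00195) against control cells. This probe lies outside the rule of the brightest probe and was picked out after its values were seen.

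Syp, which encodes synaptophysin, a major vesicle membrane protein, was not called in any comparison. It read 423, 493, 499 and 396 in shPGRN cells, 472, 621, 394 and 598 in hPGRN cells and 562, 540, 619 and 398 in control cells, and all lines overlapped. The log2 fold changes were -0.19 for shPGRN against control cells, -0.02 for hPGRN against control cells and -0.16 between the modified lines (SE 0.13 each).

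Its relative Sypl, found in many tissues, was the only member higher in shPGRN cells than in both other lines. It was at 725 to 948 in shPGRN cells, 547 to 652 in hPGRN cells and 553 to 673 in controls. The limma log2 fold change was 0.35 against control cells (SE 0.10, adjusted p = 0.0222) and 0.36 against hPGRN cells (SE 0.10, adjusted p = 0.0182), and the second probe gave 0.34 and 0.37. Both calls were lost without shPGRN replicate 4 (adjusted p = 0.087 and 0.0783), the first also without control replicates 1 or 2 (0.071 and 0.0644) and the second without hPGRN replicates 1 or 4 (0.0552 and 0.0692). Floored values also lost both (adjusted p = 0.0568 and 0.0519).

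Sv2c, a vesicle glycoprotein, was dim. It read 56.7, 80.9, 69.3 and 51.6 in shPGRN cells, 9.92, 43.8, 10.1 and 36.3 in hPGRN cells, where 2 of 4 arrays were above background, and 53.3, 41.7, 22.5 and 24.7 in control cells. shPGRN arrays lay above those of hPGRN cells (log2 fold change 0.51 ± 0.12 SE, limma adjusted p = 0.00609) and overlapped control arrays (0.35, adjusted p = 0.0564). With floored values the call was lost (1.67, adjusted p = 0.0742). Sncb, which encodes beta-synuclein, was at 14.5 to 49.1 in shPGRN cells and 56.9 to 77.4 in hPGRN cells (log2 fold change -0.43 ± 0.10 SE, limma adjusted p = 0.00562). Sv2a and Sncg were not called.

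Of 6 members tested in the Rab3 and active zone group, 2 were lower in shPGRN than in control cells (33.3%, beside 6.91% of all genes). Against hPGRN cells, 3 were lower in shPGRN cells (50%, beside 7.16%). No member of the group was called higher, or called at all in hPGRN against control cells. Rab3a, the Rab protein of synaptic vesicles, was at 172 to 227 in shPGRN cells and 252 to 294 in control cells (log2 fold change -0.38 ± 0.10 SE, limma adjusted p = 0.0108). Rims2, a scaffold that links Rab3 to calcium channels, was at 289 to 430 in shPGRN cells and 444 to 573 in hPGRN cells (log2 fold change -0.44 ± 0.11 SE, limma adjusted p = 0.0103). For both, the arrays of the compared lines did not overlap. The Rab3a call was lost with the mean of kept probes (-0.21, adjusted p = 0.0672) and the Rims2 call with floored values (adjusted p = 0.0555).

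The other calls of this group were lost under more alternatives. Unc13b, a priming factor that opens syntaxin, was at 94.7 to 133 in shPGRN cells and 143 to 176 in control cells (log2 fold change -0.30 ± 0.09 SE, limma adjusted p = 0.0297). That call was lost without shPGRN replicates 1 or 2 or control replicates 2 or 3, with adjusted p of 0.0705 to 0.0961. It was also lost with no filter on dim probes (0.0561) and with 2 lines only (0.0504). Rab3d, a Rab of secretory granules, was at 190 to 211 in shPGRN cells and 223 to 297 in hPGRN cells (log2 fold change -0.29 ± 0.09 SE, limma adjusted p = 0.043). It was lost in 14 of 22 alternatives, and among these leaving out any shPGRN array, hPGRN replicates 1, 2 or 3 or control replicates 1 or 3 gave adjusted p of 0.0509 to 0.143.

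Unc13a, the priming factor of most fast synapses, lay at the background limit. Its kept probe was above the limit on 0 of 4 shPGRN, 3 of 4 hPGRN and 1 of 4 control arrays, with shPGRN arrays at -11.6 to 6.16 and hPGRN arrays at 11.4 to 20.6. With both its probes counted, Unc13a was above the limit on 0 of 4 shPGRN, 3 of 4 hPGRN and 2 of 4 control arrays. It was at least 1.03-fold lower in shPGRN than in hPGRN cells (limma adjusted p = 0.0465), and 12 of 21 alternatives lost the call. Those included leaving out shPGRN replicates 1, 3 or 4, any hPGRN array or control replicate 1, with adjusted p of 0.0543 to 0.179. Pclo, a large active zone scaffold, was not called.

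In endocytosis the endophilins differed in direction. Sh3gl1, the widely expressed endophilin A2, was at 332 to 423 in shPGRN cells and 263 to 289 in control cells (log2 fold change 0.41 ± 0.09 SE, limma adjusted p = 0.00336), while the neuronal endophilin Sh3gl2 was lower in those cells. In hPGRN cells Sh3gl1 was at 309 to 387 and was not called against control cells (0.29, adjusted p = 0.064). Ap2m1, the cargo-binding subunit of AP-2, was at 968 to 1104 in shPGRN cells and 1135 to 1324 in hPGRN cells (log2 fold change -0.28 ± 0.09 SE, limma adjusted p = 0.0383). The call was lost in 10 of 22 alternatives. Leaving out shPGRN replicates 1, 2 or 4 or hPGRN replicates 1, 2 or 4 gave adjusted p of 0.074 to 0.102. A normexp offset of 16 gave 0.0549 and no filter on dim probes 0.078. Every kept probe fitted gave 0.0503 and the replicate number as a block 0.061.

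The clathrin chains Cltc, Clta and Cltb, the AP-2 subunits Ap2a1 and Ap2b1, the clathrin assembly protein Snap91, the membrane-bending Bin1 and the dynamin Dnm1 were not called. Their log2 fold changes lay between -0.27 and 0.27. Ap2b1 varied widely within lines (SE 0.21) and Cltc was dim, at means of 41.7 to 54.0, so a difference in them could have been missed. Clta was at 2578 to 3404 over all arrays. The brightest kept probe of Dnm1, the dynamin of nerve terminals, was above background on 2 of 4 shPGRN, 4 of 4 hPGRN and 0 of 4 control arrays (0.27 in hPGRN against control cells, limma adjusted p = 0.0521). With all its probes counted, Dnm1 was above background on 3 of 4 shPGRN, 4 of 4 hPGRN and 1 of 4 control arrays.

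**Figure D3:**
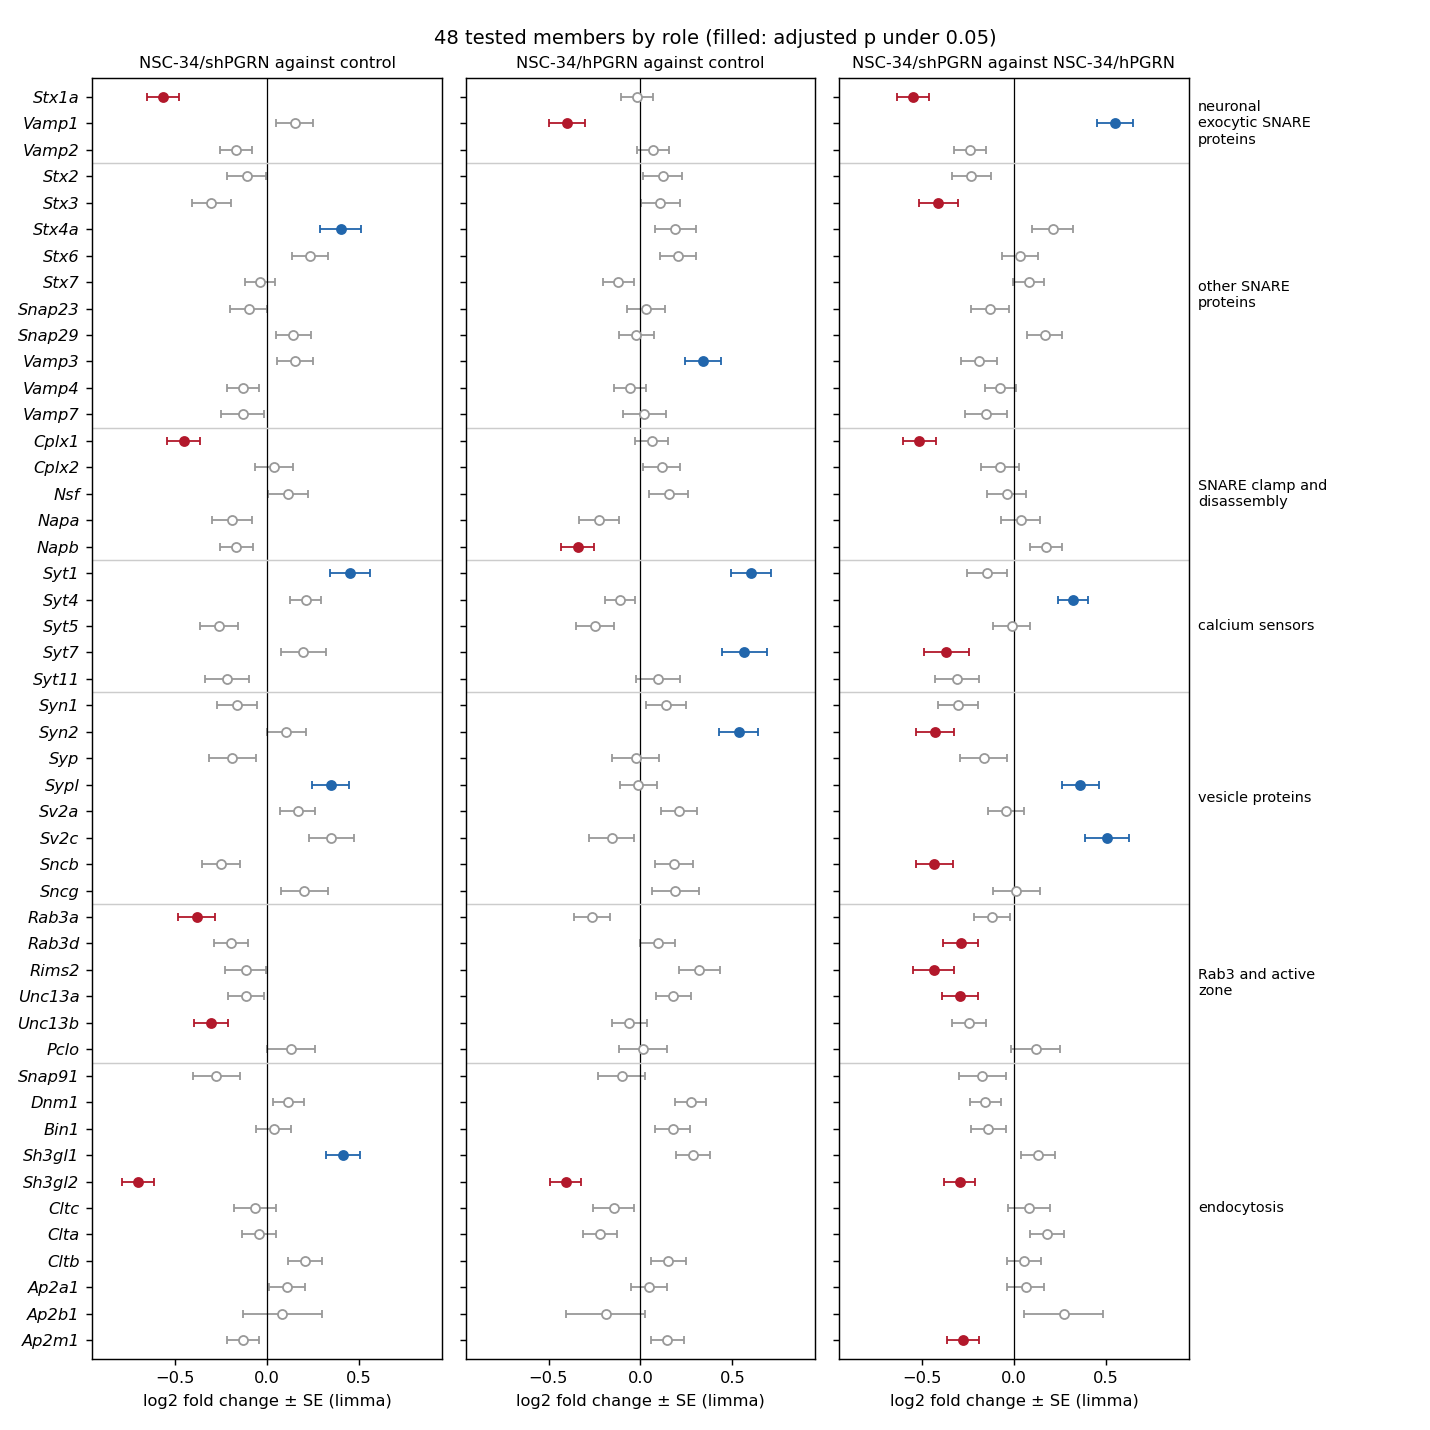
Limma log2 fold change with SE for each of the 48 tested members, ordered by role, in the 3 comparisons. Filled points passed the adjusted p of 0.05: 5 lower and 4 higher in the left panel, 3 lower and 4 higher in the middle and 11 lower and 4 higher on the right.

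Several members had more than 1 usable probe. Of the 48 tested members, 26 had over 1 kept probe, and the probes of a gene can match different transcripts. Sypl gave 0.36 and 0.37 on its 2 kept probes in shPGRN against hPGRN cells. For Vamp1 the second probe was also called (0.33, limma adjusted p = 0.0233 with every probe fitted) and the third was not (0.15). The dim second probes of Syn2, Syt7 and Rab3a, with means of at most 26.95, showed no called difference.

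**Figure D4:**
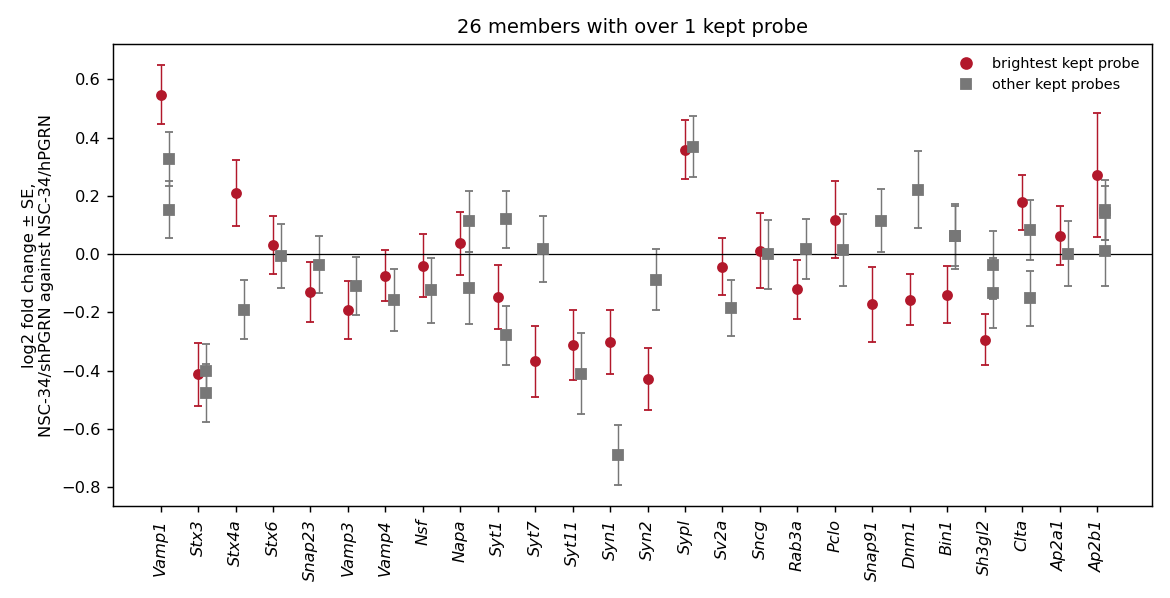
Limma log2 fold change with SE of shPGRN against hPGRN cells for the 26 members with over 1 kept probe, with the brightest probe as a red circle and the others as grey squares. The probes of Sypl lie together, while the second probe of Syn1, at -0.69, lies below its brightest, at -0.30.

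Other genes of the pathway were counted from 6 lists of 136 genes. Of 90 tested, 12 were lower (13.3%) and 4 higher (4.44%) in shPGRN than in hPGRN cells, 11 lower (12.2%) and 10 higher (11.1%) in shPGRN than in control cells, and 1 lower (1.11%) and 7 higher (7.78%) in hPGRN than in control cells. The backgrounds are those given above. The lists were put together with earlier results of these data known. Of 25 endocytosis genes, 6 were lower (24%) and 4 higher (16%) in shPGRN than in control cells, and 4 were lower (16%) than in hPGRN cells. Fcho1, which starts clathrin pits, was at 301 ± 37.8 in shPGRN cells, 559 ± 37.6 in hPGRN cells and 494 ± 30.4 in control cells (log2 fold changes of -0.76 and -0.60, limma adjusted p = 6.07e-06 and 7.27e-05). Pacsin1, a neuronal partner of dynamin, was at 103 ± 23.7, 210 ± 22.5 and 198 ± 20.4 in the same order (-0.69 and -0.63, limma adjusted p = 6.25e-05 and 0.000169). Fcho2, the relative of Fcho1, was instead higher in both modified lines than in control cells (0.45 and 0.42).

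In shPGRN cells Rab27a differed from control cells by more than any tested member. This Rab protein tethers secretory granules and lysosome-related organelles to the plasma membrane. It was at 600, 529, 573 and 570 in shPGRN cells, 314, 240, 259 and 271 in hPGRN cells and 143, 145, 169 and 159 in control cells. No lines overlapped, and the limma log2 fold changes were 1.503 (SE 0.09, adjusted p = 4.65e-11) and 0.60 (SE 0.09, adjusted p = 0.00015) against control cells.

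Of 19 other vesicle membrane and Rab genes, 5 were higher (26.3%) and 1 was lower (5.26%) in shPGRN than in control cells. Against hPGRN cells, 3 were higher (15.8%) and 2 lower (10.5%) in shPGRN cells. In hPGRN against control cells 3 were higher (15.8%) and 0 lower. Rab27a was among the higher genes each time. The gene lower than in control cells, Syngr3, a synaptogyrin, was at 218 ± 43.3 in shPGRN cells, 388 ± 44.2 in hPGRN cells and 396 ± 69.0 in control cells (log2 fold changes of -0.67 and -0.69, limma adjusted p = 0.000331 and 0.000238). Rims3, a short relative of Rims2, was highest in hPGRN cells (0.68 against control cells, limma adjusted p = 0.000799, and -0.52 for shPGRN against hPGRN cells, adjusted p = 0.00351). Of 18 other SNARE genes, 4 were lower (22.2%) in shPGRN than in control cells, 3 lower (16.7%) and 1 higher (5.56%) in shPGRN than in hPGRN cells, and 1 lower and 1 higher in hPGRN than in control cells. Vti1a, a SNARE of the Golgi apparatus and endosomes, was lower in shPGRN cells than in control cells (-0.35, limma adjusted p = 0.0137) and in hPGRN cells (-0.46, limma adjusted p = 0.00181). Stx12, a syntaxin of recycling endosomes, was higher in hPGRN than in control cells (0.51, limma adjusted p = 0.00283) and than in shPGRN cells (-0.48 for shPGRN against hPGRN cells, limma adjusted p = 0.00204). Stx8, of late endosomes, was lower in hPGRN than in control cells (-0.34, limma adjusted p = 0.025) and than in shPGRN cells (0.31 for shPGRN against hPGRN cells, adjusted p = 0.0239). Among 15 regulators of SNARE assembly and priming the only call was Napg, an adaptor of NSF, higher in shPGRN than in control cells (0.34, limma adjusted p = 0.0147). That was 6.67% of this list, beside 7.38% of all genes.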

How the data were processed

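The authors deposited linear, background-subtracted intensity values of 45281 probes on 12 arrays, with the same distribution on each and 31.7% to 31.8% of values below 0. The methods name lumi normalization followed by an empirical Bayes test, while no source used here says how the table itself was made. A table of non-normalized signals, whose 24 columns match no sample, was not used. Probe genes came from the platform annotation (34885 probes with 1 symbol, 18 with several, 10378 with none) and 34807 matched RefSeq by Entrez ID.

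The values were corrected with normexp (offset 50), quantile normalized and put on a log2 scale in limma 3.58.1 (R 4.3.3). A deposited intensity of 0 became 72.1 to 72.2 before log2, which shrinks the folds of dim genes. Intensities in the text are the deposited values, and fold changes come from the fit. A probe was kept if it exceeded the background limit of an array (set from how far values spread below their most common value, at p under 0.05) on at least 4 of 12 arrays, which 20542 were, and the brightest kept probe stood for a gene. lmFit and eBayes were run on all 12 arrays with 1 mean per line, with Benjamini-Hochberg adjustment over 11204 genes in each comparison, and the steps were tested on simulated data. Where no probe of a gene was above background in a line, the fold is a bound against the lowest signal above background.

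Members and lists were chosen with earlier results of these data known. Values by array are given for members called with a log2 fold change of at least 0.5 in size and, whatever they showed, for Stx1a, Snap25, Vamp2, Syt1, Syp and Cplx1. Other called members are given in short form, and of each other list up to 3 called genes with the smallest adjusted p in a comparison were open to naming. Marker lists of neurons, fibroblasts, Schwann cells, astrocytes and oligodendrocytes, and macrophages checked the cells. The alternatives used another offset or floored values in place of normexp, no quantile step, other filters, all probes of a gene, 2 lines only, weighted arrays, replicate number as a blocking factor, a fold minimum of 1.5, and each array left out in turn. Figures were drawn with matplotlib 3.10.9.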

Additional observations from a re-analysis of the deposited data

Results flagged for a closer look

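In 3 of 75 sets of 4 arrays (4%), 1 array stood apart from the others of its line, with its gap to the nearest array, as a ratio to the whole range of the line, above Dixon's critical value. Chance gives about 1 in 20. Stx3 replicate 3 of shPGRN cells was at 34.2 against 20.02 to 21.1 on the other arrays (ratio 0.925), and Stx3 replicate 3 of hPGRN cells was at 85.1 against 43.2 to 50.3 (ratio 0.831). The call of Stx3 between these lines was lost without hPGRN replicate 3 (limma adjusted p = 0.0508). Unc13b replicate 3 of hPGRN cells was at 126 against 152 to 156 (ratio 0.869).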

How the results depend on the processing

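The folds used here are on the fitted scale, which shrinks those of dim genes. A fold minimum of 1.5 left 1 lower and 0 higher members in shPGRN against control cells. It left 0 lower and 1 higher in hPGRN against control cells, and 0 lower and 0 higher in shPGRN against hPGRN cells. In the last comparison the 11 lower members became 7 with floored values in place of normexp, 7 without the filter on dim probes and 7 with every probe fitted, and the 4 higher became 2 with floored values. Leaving out 1 array at a time gave 4 to 7 lower and 2 to 5 higher members in shPGRN against control cells, 2 to 3 lower and 3 to 5 higher in hPGRN against control cells, and 6 to 13 lower and 3 to 4 higher in shPGRN against hPGRN cells. With the replicate number as a block the counts were 6 lower and 4 higher, 3 and 3, and 8 and 4 in the same order. Deviations from the line means of same-numbered arrays correlated at -0.159 to 0.127 in 12 pairs, so a shared number was not read as pairing. The sign turned for values near 0 that were not called. In NSC-34/hPGRN against control, Syp was at 0.000266 with array weights and at -0.139 to 0.0851 with 1 array left out (above 0 without hPGRN replicates 1 or 3 or control replicates 1 or 3), and Stx1a was at -0.0525 to 0.0195 with 1 array left out (above 0 without hPGRN replicate 4 or control replicate 4). The cause was not tested. The number of arrays and the dimness of probes such as Unc13a limit the precision.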
